A study of Mus musculus and Mus musculus
Oryx dammah with 30 samples.

Results

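The genes examined encode RNA polymerase II (Pol II), the general transcription factors that place it at promoters, and Mediator. They were taken by name: protein-coding genes called Polr2 followed by a letter from a to m, and those starting with Gtf2, with Taf and a digit, or with Med and a digit, together with Tbp. This rule found 83 of 53023 genes in the four-cell table and in the DNA replication table, and 84 of 55364 in the two-cell table, where Taf7l2 is also listed. The question was whether blocking Pol II with α-amanitin changed the mRNA of Pol II's own machinery.

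Somatic C2C12 cells, a myoblast line from C3H mice, were fused with embryos of C57BL/6 eggs and DBA/2 sperm, and the nuclear transfer (NT) embryos were kept in 0.1 μg/ml demecolcine, which disrupts microtubules and arrested the embryos at G2/M. In the four-cell experiment, NT was done between 46 and 49 hours post insemination (hpi) and embryos were collected at 70 hpi, with 2.5 μg/ml α-amanitin or without it (3 libraries each, pools of 3 embryos). The two-cell experiment had 6 libraries with and 6 without α-amanitin (pools of 5 embryos), made from early two-cell embryos (NT at 21 to 24 hpi, collected at 45 hpi) and late two-cell embryos (NT at 30 to 33 hpi, collected at 54 hpi). The DNA replication experiment compared the groups D and DR without α-amanitin (3 libraries each, pools of 4 embryos), and the labels do not say which letters stand for replication. RNA of the recipient embryo and of the donor nucleus is mixed in each pool, and in such pools fewer cells and less RNA per cell cannot be told apart. The fourth experiment, with cells of the antelope Oryx dammah, was not used here.

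Pol II makes all mRNA. Its catalytic centre lies between the large subunits Polr2a and Polr2b, and Polr2e, Polr2f, Polr2h, Polr2k and Polr2l are also built into Pol I and Pol III. TFIID, made of TBP and TBP-associated factors (TAFs), recognizes core promoters, TFIIA and TFIIB stabilize it there, TFIIF and TFIIE bring in and prepare the enzyme, and TFIIH opens the DNA. Mediator relays signals from activators to Pol II through its head, middle and tail modules and a detachable kinase module. In mouse embryos the zygotic genome is activated mainly at the two-cell stage, while much of the mRNA present before it is maternal. α-Amanitin binds the enzyme near its active site and stops elongation.

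Promoters are shown for 6 members that stood at the extremes of the comparisons: Med7 and Med18, which were lower with α-amanitin in both embryo stages, Polr2h, among the largest falls in two-cell embryos, and Polr2f, Taf3 and Gtf2a2, which were higher in one of the comparisons. Each runs from 250 bases before to 50 bases after the gene's start in RefSeq on GRCm38.p6, 5′ to 3′ on the gene's strand. They lie at chr11:46436697-46436996 (plus strand, Med7), chr4:132463872-132464171 (minus strand, Med18), chr16:20717576-20717875 (plus strand, Polr2h), chr15:79141075-79141374 (plus strand, Polr2f), chr2:10048560-10048859 (minus strand, Taf3) and chr9:70012298-70012597 (plus strand, Gtf2a2). Capitals mark matches on either strand to the TATA box TATAAA, the motif of ETS factors CCGGAAG, the NRF1 motif GCATGCGC, the GC box GGGCGG bound by SP1, or the YY1 motif AAGATGGCG.
Med7: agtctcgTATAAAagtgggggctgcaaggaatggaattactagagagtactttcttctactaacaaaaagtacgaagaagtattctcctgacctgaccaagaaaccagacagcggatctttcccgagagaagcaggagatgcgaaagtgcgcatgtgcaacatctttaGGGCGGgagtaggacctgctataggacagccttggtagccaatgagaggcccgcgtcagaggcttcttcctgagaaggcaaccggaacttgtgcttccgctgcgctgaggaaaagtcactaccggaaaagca
Med18: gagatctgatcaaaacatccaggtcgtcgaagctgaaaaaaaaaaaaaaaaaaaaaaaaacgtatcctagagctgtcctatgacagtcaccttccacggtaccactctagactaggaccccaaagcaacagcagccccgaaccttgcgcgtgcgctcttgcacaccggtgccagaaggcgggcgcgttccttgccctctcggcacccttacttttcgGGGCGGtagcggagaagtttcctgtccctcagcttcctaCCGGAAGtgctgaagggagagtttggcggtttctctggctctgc
Polr2h: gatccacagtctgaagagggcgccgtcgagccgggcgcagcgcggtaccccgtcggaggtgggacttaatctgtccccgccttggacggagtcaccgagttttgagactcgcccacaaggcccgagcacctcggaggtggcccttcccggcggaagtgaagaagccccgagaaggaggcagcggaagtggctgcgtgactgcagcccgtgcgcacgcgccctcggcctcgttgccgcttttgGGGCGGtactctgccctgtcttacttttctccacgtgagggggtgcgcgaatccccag
Polr2f: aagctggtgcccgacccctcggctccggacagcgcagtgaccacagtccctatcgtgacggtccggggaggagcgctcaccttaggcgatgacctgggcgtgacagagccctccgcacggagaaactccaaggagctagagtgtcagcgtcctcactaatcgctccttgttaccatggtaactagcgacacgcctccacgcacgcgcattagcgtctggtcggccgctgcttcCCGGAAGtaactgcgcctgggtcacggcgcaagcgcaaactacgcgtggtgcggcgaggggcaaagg
Taf3: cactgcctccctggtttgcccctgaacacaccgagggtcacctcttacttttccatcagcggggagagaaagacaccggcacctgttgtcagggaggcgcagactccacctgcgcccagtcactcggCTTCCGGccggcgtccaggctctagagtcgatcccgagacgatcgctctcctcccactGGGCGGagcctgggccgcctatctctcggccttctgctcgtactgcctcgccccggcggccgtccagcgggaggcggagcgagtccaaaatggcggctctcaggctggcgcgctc
Gtf2a2: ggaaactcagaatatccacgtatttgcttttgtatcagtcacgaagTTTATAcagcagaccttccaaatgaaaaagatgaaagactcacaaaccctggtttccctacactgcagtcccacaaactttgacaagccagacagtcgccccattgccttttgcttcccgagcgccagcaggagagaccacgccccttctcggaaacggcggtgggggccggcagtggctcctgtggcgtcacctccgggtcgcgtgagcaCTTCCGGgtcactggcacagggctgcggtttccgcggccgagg

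The TATAAA matches of Med7 and Gtf2a2 begin 243 and 204 bases before the start, whereas working TATA boxes lie close to it. No matches overlap in the sequences shown. Of the members, 73 of 84 were found in the promoter table. CCGGAAG was found in 24 of these 73 promoters (32.9%) and in 9.14% of the 27025 promoters in the table, and GGGCGG in 48 of 73 (65.8%) and in 35.9% of all. GCATGCGC was found in 8 (11.0%, against 2.8% of all), AAGATGGCG in 4 (5.48%, against 1.48%) and TATAAA in 10 (13.7%, against 14.2%). These are matches of letters in a fixed window and say nothing of binding. CCGGAAG stands in the promoters of Med18, lower with α-amanitin, and of Polr2f, Taf3 and Gtf2a2.

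Expression is given as FPKM, fragments per kilobase of gene, scaled to the total of counted fragments, so levels can be compared between genes within a table. Reads on genes numbered 1136771 to 3101002 per library in four-cell embryos, 4364337 to 10060473 in two-cell embryos and 2602780 to 19170642 in the replication experiment, and the 3-read floors used below cover counting error only. The recipient embryo was evident in the four-cell libraries: the 13 maternal oocyte markers summed to 8740 to 9930 FPKM without and 12200 to 16200 FPKM with α-amanitin, the 14 myoblast markers to 34.4 to 102 FPKM without and 110 to 324 FPKM with it, and 6 of the 7 cumulus cell markers were at 0 in every library. Neither pair of ranges overlapped, and their part in the members' changes was not tested. Nearly all of the maternal sum was Dppa3, with means of 9450 FPKM without and 13800 FPKM with α-amanitin. Ooep went the other way, with means of 7.02 and 1.21 FPKM. Among the myoblast markers Pax7 was at 0 in all tables, the four-cell mean of Myod1 was 2.06 FPKM without and 2.42 FPKM with α-amanitin, and that of Acta2, which made up most of the sum, was 45 and 151 FPKM. The embryonic activation markers, a list chosen with earlier results of these data known and so no independent check of the block, had a sum of 145 to 305 FPKM without and 0.277 to 15.8 FPKM with α-amanitin in four-cell embryos, and 142 to 936 FPKM against 16.8 to 47 FPKM in two-cell embryos. Most of the untreated four-cell sum was from Rpp38 (means 165 FPKM without and 2.98 FPKM with α-amanitin). With α-amanitin the mean of Tdpoz4 was about as high (2.99 FPKM). Of the 10 genes on that list, Zscan4c and Zscan4d were at 0 in every four-cell library and did not pass in two-cell embryos, with changes of 0.70 and 0.61 (adjusted p 0.0954 and 0.314, limma).

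Genes entered the tests where FPKM was at least 1 in at least 3 libraries, which 72 of 83 members did in four-cell embryos, 78 of 84 in two-cell embryos and 79 of 83 in the replication experiment. Without α-amanitin the highest four-cell levels were all of Pol II subunits: Polr2f at 1029 ± 62.3 FPKM (SD, n = 3 here and below), Polr2j at 512 ± 74.5 FPKM, Polr2h at 437 ± 105 FPKM and Polr2d at 341 ± 33.2 FPKM. The libraries of Polr2j overlapped with those of Polr2h, and these with those of Polr2d, while every library of Polr2f was above all of them. This order rests on the annotated lengths: Polr2f has 543 bases in the four-cell table and 2595 in the two-cell table, where its untreated libraries were at 121 to 205 FPKM. Polr2a, the largest subunit, which carries the heptad repeat tail phosphorylated during transcription, had only 0.867 ± 0.455 FPKM and did not enter the four-cell test. Outside the enzyme, the highest were Med6 (Mediator head, 235 ± 14.2 FPKM), Gtf2f2 (TFIIF, 176 ± 24.1 FPKM), Med29 (Mediator tail, 159 ± 47.7 FPKM) and Gtf2h5 (TFIIH, 150 ± 4.93 FPKM).

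In four-cell NT embryos, few members responded to α-amanitin. Relative to the total of counted reads, Med7, Med18, Taf7, Gtf2e1, Med4 and Taf12 fell and Polr2f rose, 7 of 72 members tested (9.72%), beside 12.2% of all 9884 genes tested (limma on log2(FPKM + 1), Benjamini-Hochberg adjusted p under 0.05). Falls made up 6 of 72 members against 11.1% of all genes, and rises 1 of 72 against 1.13%. The median log2 change of the members was −0.34 and that of all genes −0.37, so the members' median lay close to that of all genes. Fewer genes reached an FPKM of 1 with α-amanitin (8459 to 8744 per library) than without (10255 to 10958), and the part of this in the members' changes was not tested. At an unadjusted p under 0.05 there were 18 of 72 members, beside 28.9% of all genes. The count of 7 depended on single libraries: it was 13 without S16, 4 without S8, 3 without S18 and 1, Med7, without S15, S17 or S7, where Med18 did not enter the test because only 2 untreated libraries were left (libraries are called by the numbers in their column names).

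Med7, a subunit of the Mediator middle module, fell most. It stood at 89.4, 41.7 and 54.3 FPKM without α-amanitin and at 7.08, 2.76 and 3.51 FPKM with it. The groups were far apart, with a log2 change of −3.54 (SE 0.42, adjusted p 0.00402 by limma). Of its exon bases, 21.2% are shared with a noncoding gene on the other strand, 2310031A07Rik, and the strand setting of the counting is not given in the sources used here.

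Med18, of the Mediator head, had 26, 20 and 20 reads without α-amanitin, or 5.71, 5.47 and 4.63 FPKM, and no read in any treated library. Set against a floor of 3 reads per treated library, it was at least 5.75-fold lower. It passed the filter on low values through the untreated libraries alone and so had to differ, and its place among the 7 calls is a description and not a test. Med26, a Mediator middle subunit that links Mediator to elongation factors, showed the same pattern at a lower level, with 5, 15 and 24 reads without and 0 with α-amanitin, at least 3.91-fold lower. It did not pass the filter on low values and was not tested.

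Taf7, a TFIID subunit that holds back the acetyltransferase activity of TAF1, fell from 76.8, 103 and 73.1 FPKM to 35.4, 18.4 and 12.4 FPKM. Its log2 change was −2.0 (SE 0.39, adjusted p 0.0164 by limma). Gtf2e1, the large subunit of TFIIE, fell from 6.43, 4.17 and 7.21 FPKM to 2, 0.14 and 1 FPKM, resting in one treated library on a single read. Its log2 change was −1.84 (SE 0.48, adjusted p 0.0406).

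Med4, another middle subunit, fell from 69.4, 70.2 and 58.8 FPKM to 30.7, 27.3 and 8.08 FPKM (log2 change −1.73, SE 0.46, limma adjusted p 0.0452). Taf12, which has a histone fold and is shared between TFIID and the SAGA coactivator, fell from 62.7, 66.7 and 55.8 FPKM to 37.2, 29.4 and 29.6 FPKM (log2 change −0.93, SE 0.26, limma adjusted p 0.0484). Neither group pair overlapped. Polr2f, the shared subunit with the highest level, went the other way, from 962, 1041 and 1085 FPKM to 1456, 1823 and 2712 FPKM. This was a log2 change of 0.91 (SE 0.24, adjusted p 0.0418), and on recovered reads it no longer passed (0.86, adjusted p 0.0553, limma voom).

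**Figure D1:**
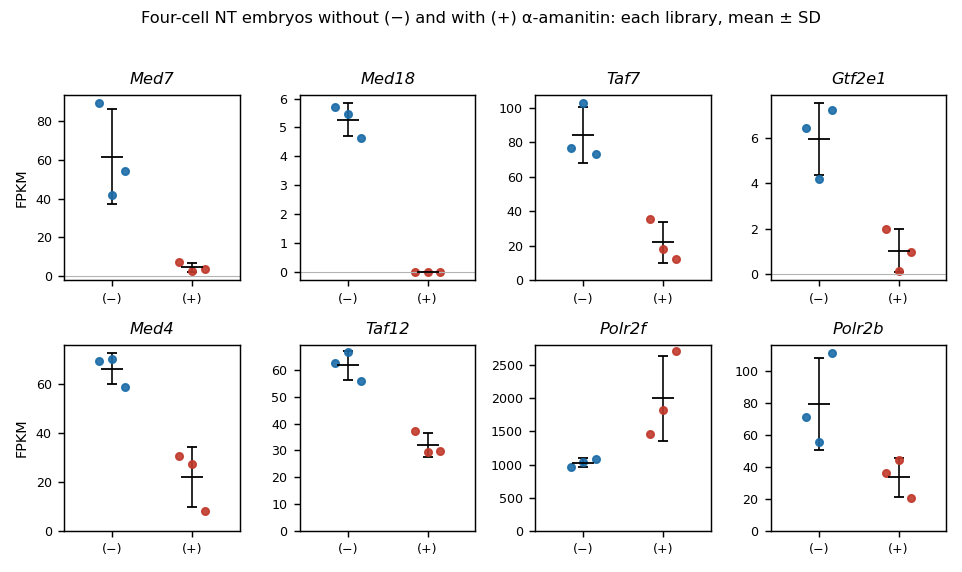
FPKM (y axis) of the 7 called members and of Polr2b in each four-cell library (points) without (−) and with (+) α-amanitin, with the mean and SD of 3 libraries (black). Med18 was at 0 in all treated libraries and Polr2f was higher in each treated library than in any untreated one.

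Taf5l and the head subunit Med20 had changes as large as that of Taf7 but did not pass. Taf5l stood at 14.9, 11.8 and 4.66 FPKM without and 5.51, 0 and 0.176 FPKM with α-amanitin (log2 change −2.41, SE 0.76, adjusted p 0.0715 by limma), with overlap, and passed with voom. Med20 stood at 26.5, 22.2 and 15.5 FPKM without and 13.2, 3.72 and 1.46 FPKM with it (SE 0.61, adjusted p 0.0656), without overlap.

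By class, most four-cell changes were negative outside the enzyme. The median of all genes was itself negative (−0.37), and the share of all genes with a negative change was not counted. Of the 11 Pol II core subunits tested, 6 had positive and 5 negative changes, with a median of 0.12 (0.43 and 8 positive with FPKM scaled by the median of ratios, a scaling described below). All 5 shared subunits were positive (median 0.36), while 5 of the 6 tested enzyme subunits were negative (3 with that scaling), led by the second largest subunit Polr2b at −1.23 (adjusted p 0.0662, limma), which passed with voom on recovered reads. Of the 14 tested members of TFIID, 12 were negative (median −0.57), as were 7 of 8 in the Mediator head (median −0.72) and 7 of 9 in the middle (median −0.36). In the Mediator tail 3 of 8 were negative (median 0.18). With the other scaling 11 of 14, 6 of 8, 6 of 9 and 1 of 8 were negative. All 7 tested TAFs outside TFIID, which serve Pol I, SAGA or RNA binding, were negative (6 with the other scaling), led by Taf5l of SAGA. The general factors TFIIA, TFIIB, TFIIE, TFIIF and TFIIH had 9 of 12 negative (7 with the other scaling), and TBP was at −0.82 (SE 0.50, adjusted p 0.318).

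Treated and untreated libraries did not overlap for 13 members that were lower and 4 that were higher with α-amanitin, 17 of the 72 tested, beside 27.6% and 7.56% of all genes. The 4 that were higher were Polr2f, Polr2l (log2 change 0.68), Gtf2h4 (a TFIIH subunit, 0.90) and Med16 (Mediator tail, 0.87), of which only Polr2f passed the test. Med16 passed the filter through the treated libraries alone, and Med18, among the 13, through the untreated ones alone. Their lack of overlap was thus fixed by the filter. Med14, the backbone of Mediator, was at 0.78 and the tail subunit Med25 at 0.77, both with overlap. Taf13, the TFIID TAF of highest untreated level (89.4 ± 13.5 FPKM), was at −0.32, and Gtf2i, which encodes TFII-I, at 0.61 (adjusted p 0.538 and 0.357, limma). When each library was scaled by its median ratio to the genes' geometric means, the median of all genes moved from −0.37 to −0.13 and that of the members from −0.34 to −0.04. Then 4 members passed, Med7, Med18 and Taf7 lower and Polr2f higher, beside 9.96% of all genes. No spike-in is listed in the four-cell table, so amounts per embryo could not be compared there.

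**Figure D2:**
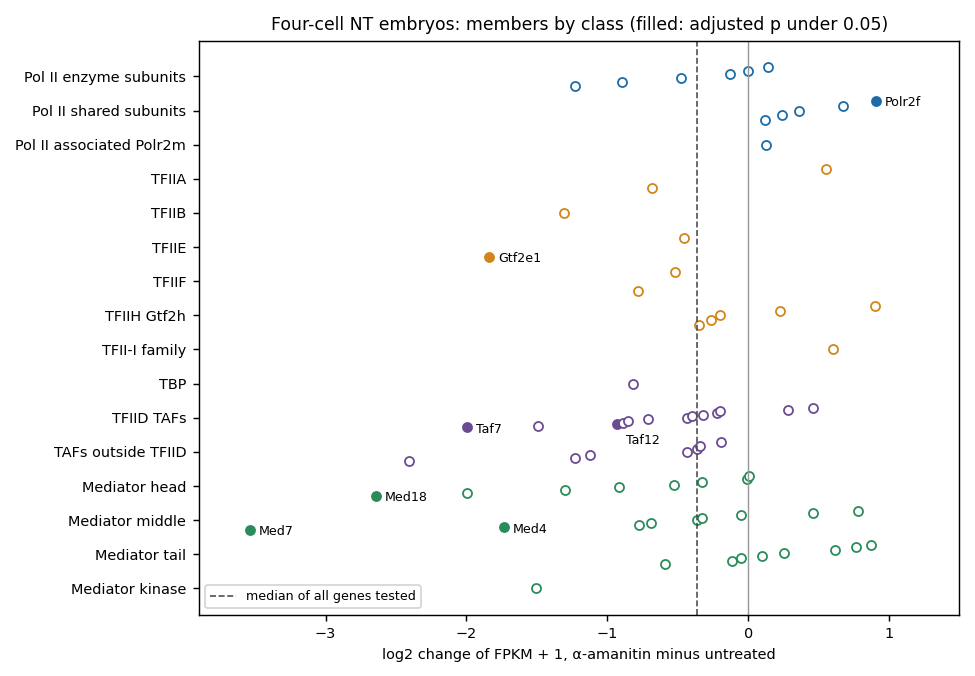
Log2 change with α-amanitin (x axis, log2 of FPKM + 1) of each tested member in four-cell NT embryos, by class (y axis). Filled points had an adjusted p under 0.05, and the dashed line is the median of all genes tested, −0.37.

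In two-cell NT embryos, pooled over both sets of columns described below, more members fell. Of 78 members tested, 46 fell and 3 rose, 62.8% in all, beside 47.4% of 17196 genes (38.9% falling and 8.51% rising). The median log2 change of the members was −1.17 and that of all genes −0.67. All 12 Pol II core subunits had negative changes (9 with median-of-ratios scaling), and 8 passed the test. Leaving out 1 library at a time gave 37 to 55 members and 6099 to 9127 genes called (36.4% to 53.9% of those tested). In TFIIH all 5 Gtf2h subunits fell (median −2.10), in the Mediator middle 7 of 10 (median −1.58), in the head 6 of 8 (median −1.65) and in the tail 3 of 8 (median −0.40). Of TBP and the TFIID TAFs, 8 of 17 fell and 2 rose. These counts came mostly from one column set: in the set called N below, 9 of 75 members fell, with the shared subunit Polr2k as the only Pol II core subunit among them and none of the Mediator head, TFIIE or TFIIF, and the medians of the Mediator tail (0.26), the kinase module (0.60) and TFIIA (0.26) were positive. Libraries did not overlap for 21 members that were lower, 26.9% of those tested, beside 16.3% of all genes. The pooled test had no term for the column set, so differences between the sets counted as spread. With the set as a term, added after the data were seen, 53 members fell and 5 rose, 74.4% beside 55.5% of all genes.

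By pooled change, an average of sets that differed widely, the falls were led by Taf7 (log2 change −3.31, SE 0.68, adjusted p 0.0025 by limma here and in this paragraph), Polr2h (−3.31, SE 1.04, adjusted p 0.0193), Polr2d (−3.29, SE 0.97, adjusted p 0.0147), Med29 (−3.13, SE 1.17, adjusted p 0.0387) and Med7 (−3.07, SE 0.60, adjusted p 0.002). In set N alone Polr2h (−0.67), Polr2d (−0.50) and Med29 (0.16) did not pass, while in set R Med29 (−6.42) and Polr2d (−6.09) came first. Polr2d forms the stalk of Pol II with Polr2g, which itself was at −0.23 (adjusted p 0.728). They were followed by the TFIIF subunit Gtf2f2 (−2.77), Taf1b (−2.73), which serves Pol I in the factor SL1, the head subunit Med6 (−2.56), the middle subunit Med10 (−2.46), the TFIIH subunit Gtf2h2 (−2.42), and Med31, Polr2e, Gtf2h5, Polr2k and Polr2b, between −2.32 and −2.15. TBP, which bends the DNA of the core promoter, fell by 1.95 on the log2 scale (SE 0.45, adjusted p 0.00487). It ranged over 11, 16.6 and 21 FPKM (lowest, median and highest of 6) without and over 0.6, 5.21 and 7.55 FPKM with α-amanitin, with no overlap. Polr2a was low again, at 1.2, 2 and 3.91 FPKM without and 0.0101, 0.578 and 1.36 FPKM with α-amanitin, and the groups overlapped. Its log2 change was −0.99 (SE 0.28, adjusted p 0.0124). Gtf2b, the only TFIIB gene, was at −0.30 (adjusted p 0.449) and Polr2j at −0.06 (adjusted p 0.916), and both were positive with median-of-ratios scaling. When 1 library was left out, Med29 passed without Am1, Am2 or Am3, and not when any of the other 9 libraries was.

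Of the 72 tested at both stages, Med7, Med18, Taf7, Gtf2e1 and Med4 fell in both, 5 of the 6 four-cell falls and 5 of the 46 two-cell falls. Over all 9325 genes tested at both stages, 624 fell in both (6.69%), which is 63.1% of the 989 four-cell falls among them. Med18 passed the filter at both stages through untreated libraries alone. The two-cell fall of Med4 passed in 3 of the 12 tests that left out 1 library, and its change was 0.14 in set N described below. A further 17 of the 72 had a positive change in four-cell and a negative one in two-cell embryos. Polr2f was one of these, at 0.91 in four-cell and −0.98 (adjusted p 0.137) in two-cell embryos, where it was at 0.32 in set N (adjusted p 0.304) and at −2.28 in set R (adjusted p 0.000951, limma). The experiments share no libraries, and the difference between stages was not tested, since the tables were made separately.

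The 12 two-cell libraries fall into 2 sets by their column names, called N and R here, each with 3 treated and 3 untreated libraries. The names do not say which set is the early and which the late two-cell embryos, so these are sets of columns and not stages, and the split was added after the data were seen. The response was much larger in set R. In set R alone 60 of 76 members fell and 5 rose, 85.5% beside 76.8% of all genes tested. Among the falls were 6 that passed the filter through untreated libraries alone, and in the pooled test 3 did (Med18, Med26 and Taf1c). In set N alone 9 of 75 fell and 1 rose, 13.3% beside 16.9%. The medians of the members were −2.05 in set R (all genes −1.31) and −0.38 in set N (all genes −0.26).

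The difference between the sets was itself larger than the spread between libraries for most members. The interaction of set and α-amanitin passed for 52 of 78 members, 66.7% beside 44.5% of all genes, with the change more negative in set R for 50 and more positive for 2 (limma, adjusted p under 0.05). Of the 74 members tested in both sets, 65 had the lower change in set R. That count was not made over all genes, whose median change was also lower in set R (−1.31 against −0.26). The libraries of the sets also differed as a whole. With α-amanitin, 10242 to 10771 genes reached an FPKM of 1 in set R and 13100 to 13499 in set N, and spike-in RNA took 8.77% to 11.3% of reads in set R and 6.54% to 8.93% in set N, ranges that overlap. Without α-amanitin the spike-in share was 2.38% to 2.81% in set R and 3.15% to 6.26% in set N, without overlap. Their part in the members' difference was not tested.

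Med29 showed the widest gap. In set N it was at 175, 193 and 155 FPKM without and 204, 195 and 184 FPKM with α-amanitin, while in set R it went from 202, 240 and 235 FPKM to 1.96, 1.3 and 1.7 FPKM. Only the treated libraries of set R were low. The change in set R was lower by 6.58 on the log2 scale than that in set N (adjusted p 6.19e-08 by limma).

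Polr2d behaved alike, with 252, 313 and 291 FPKM against 242, 211 and 159 FPKM in set N and 488, 481 and 452 FPKM against 12.2, 7.25 and 2.12 FPKM in set R. Polr2h went from 366, 294 and 287 FPKM to 210, 224 and 163 FPKM in set N and from 248, 309 and 363 FPKM to 3.3, 9.35 and 1.66 FPKM in set R. For both, the treated libraries of set R were far below all others, and in set N the treated libraries were also below the untreated ones, where neither passed (adjusted p 0.137 and 0.0561, limma).

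The 9 members called lower in set N were called lower in set R as well: Gtf2h2 and Gtf2h3 of TFIIH, Med7, Med10, Med21 and Med26 of the Mediator middle, Med23 of the tail, Polr2k and Taf7. Over all genes, 1814 of 14285 were called lower in set N and 8698 of 14387 in set R. How many of all genes were called lower in both was not counted. Med26 passed the filter in each set through the untreated libraries alone, so its calls are no test. Med7 was at 46, 67.3 and 59.6 FPKM without and 16.9, 20.8 and 17 FPKM with α-amanitin in set N, and at 56.9, 82.8 and 79.9 FPKM against 1.7, 0.592 and 6.33 FPKM in set R. Taf7 was at 76.9, 143 and 65.3 FPKM against 29.1, 45.9 and 23.7 FPKM in set N, and at 114, 124 and 135 FPKM against 3.75, 1.89 and 2.12 FPKM in set R. In both sets the treated libraries of these genes were below all untreated ones.

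Both subunits of TFIIA, which helps TBP to hold DNA, rose with α-amanitin in set R, relative to the total. Gtf2a2, the small subunit, was at 20.9, 22 and 30.2 FPKM against 18.9, 27.8 and 19.9 FPKM in set N and at 12.2, 16.8 and 22.3 FPKM against 93.2, 129 and 121 FPKM in set R. Its change in set R was 2.70 (adjusted p 8.1e-05 by limma) and its interaction with set 2.83 (adjusted p 0.000112). Gtf2a1, the large subunit, was higher in every treated library, at 16.1, 29.1 and 23.4 FPKM against 36.7, 39.3 and 31.5 FPKM in set N and at 26.2, 18.1 and 17 FPKM against 35, 44.2 and 44.9 FPKM in set R. It rose in the pooled test (0.83, SE 0.31, adjusted p 0.0387), but was at −0.54 on the spike-in scale described below, and did not pass without NT1, RAm1, RAm2, RAm3, R3, r1 or r2 (0.75 to 0.89).

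Taf3, a TFIID subunit that reads the H3K4me3 mark through its PHD finger, rose in both sets. It went from 5.84, 6 and 6.21 FPKM to 18.1, 14.3 and 20.1 FPKM in set N and from 7.07, 8.36 and 8.33 FPKM to 29.4, 17.7 and 32.4 FPKM in set R, with a pooled log2 change of 1.48 (SE 0.30, adjusted p 0.00252 by limma), though on the spike-in scale it was at −0.30 in set R. The groups did not overlap. Taf9b, a close relative of Taf9, rose in the pooled test (1.56, SE 0.50, adjusted p 0.0223), but in set R only, from 0.923, 1.56 and 3.59 FPKM to 27.9, 16.5 and 20.2 FPKM, with an interaction of 2.81 (adjusted p 0.00193), and at −0.50 in set N on the spike-in scale. It did not pass without RAm1 (1.28) or r1 (1.36). Its relative Taf9 fell (−1.79, adjusted p 0.0247). Med13l, a kinase module subunit, was the fifth member that rose in set R (0.68, adjusted p 0.0172 by limma).

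**Figure D3:**
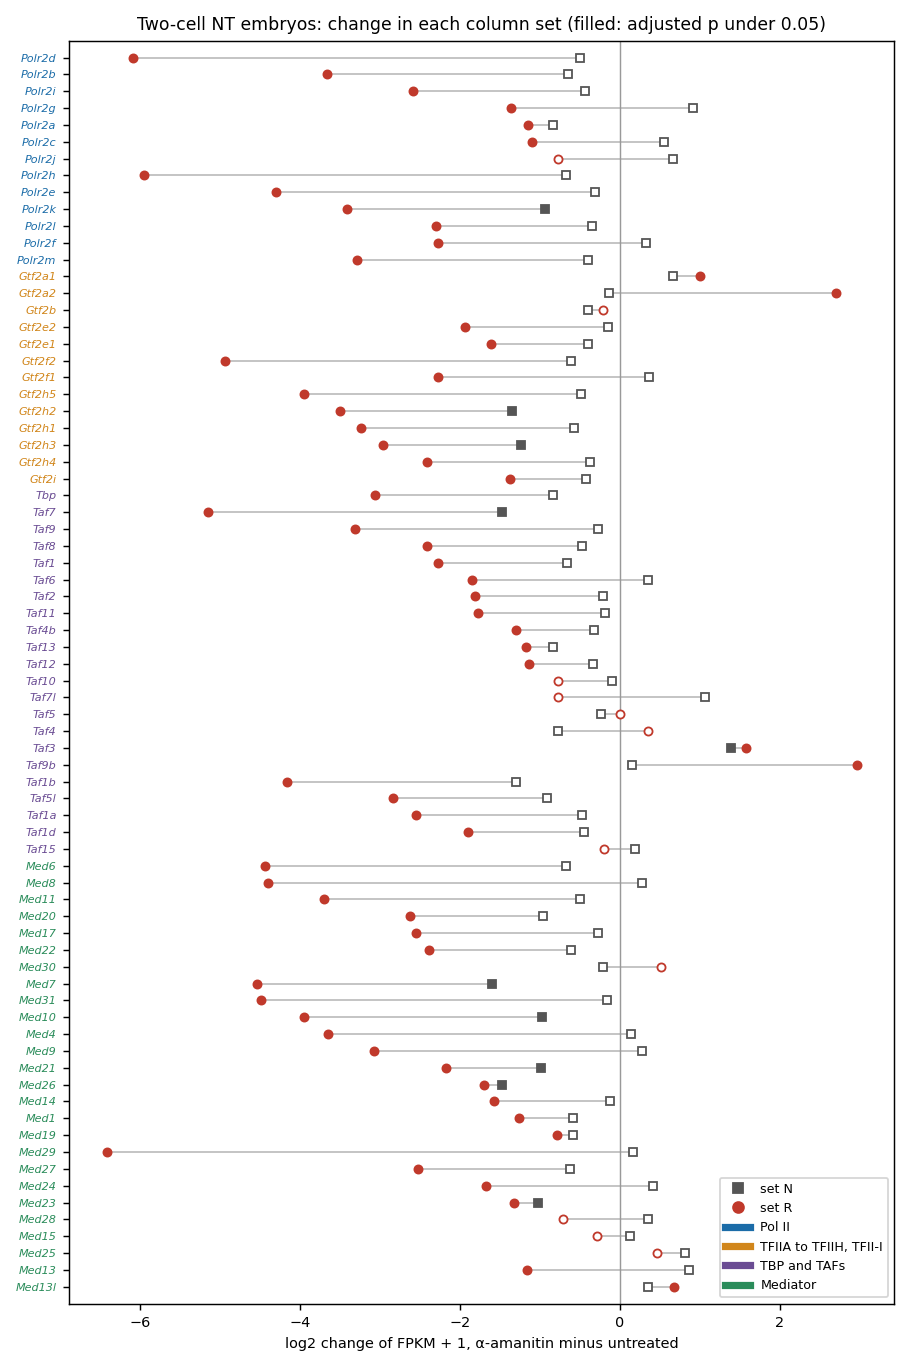
Log2 change with α-amanitin (x axis, log2 of FPKM + 1) of the 74 members tested in both column sets of the two-cell experiment, set N as squares and set R as circles, filled where the adjusted p was under 0.05. Label colours give the class, and for 65 members the circle lies to the left of the square, a count not made over all genes.

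**Figure D4:**
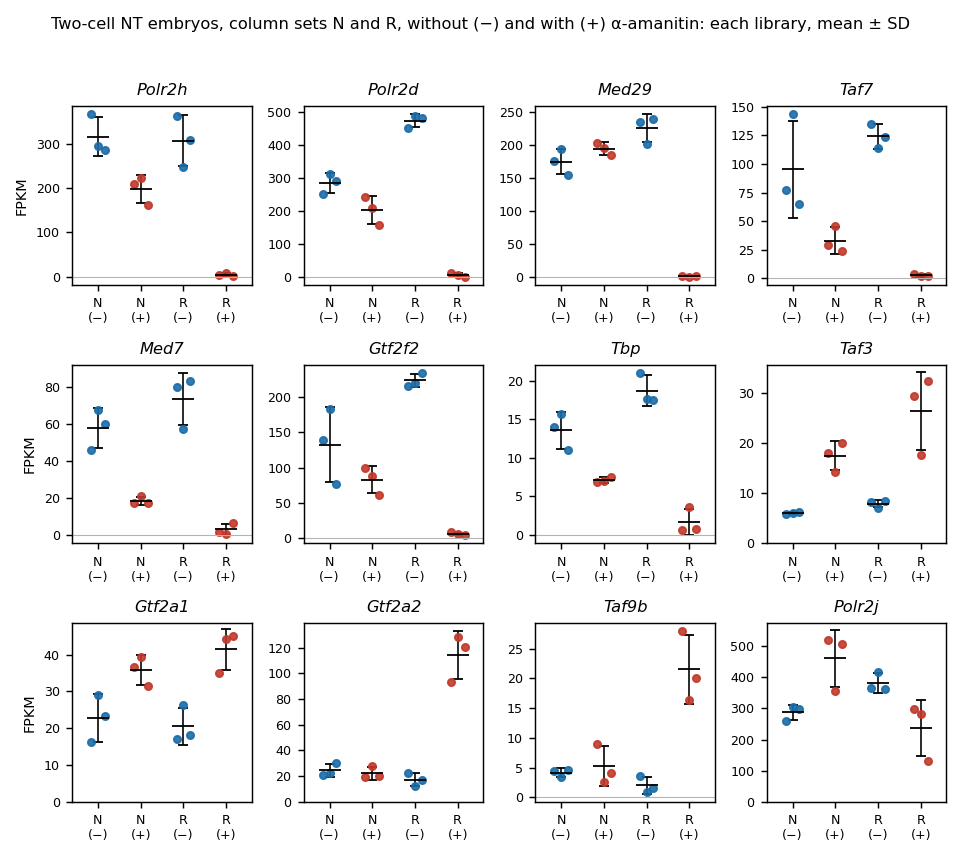
FPKM (y axis) of 12 members in each two-cell library (points) by column set, without (−) and with (+) α-amanitin, with mean and SD of 3 libraries (black). Polr2h, Polr2d and Med29 were near 0 only in treated libraries of set R, while Gtf2a2 and Taf9b were high there.

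FPKM are shares of the counted reads, so the rises depend on the scale. Per the labels, a fixed volume of diluted ERCC spike-in RNA went into the lysis buffer, and scaling to it takes the amount to be equal in every library. Its share of reads was 6.54% to 11.3% with and 2.38% to 6.26% without α-amanitin. With the 47 spike-ins that all two-cell libraries share as the reference, the median of all genes was −1.49 and that of the members −2.35. On that scale 69 of 78 members fell and 0 rose (88.5%, beside 73.0% of all genes called). The rises of Taf3 (0.17, adjusted p 0.706), Taf9b (0.40, adjusted p 0.423) and Gtf2a1 (−0.54, adjusted p 0.26) were no longer called, and Gtf2a2 was at −0.08 (adjusted p 0.89). All 12 Pol II core subunits fell, between −4.59 and −1.46. Scaled instead by the median of ratios, 26 members fell and 7 rose (42.3%, beside 36.1% of all genes), with medians of −0.65 and, for all genes, −0.23. The 7 were Taf3, Taf9b, Gtf2a1, Gtf2a2, Med13l, Med25 and Polr2j.

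**Figure D5:**
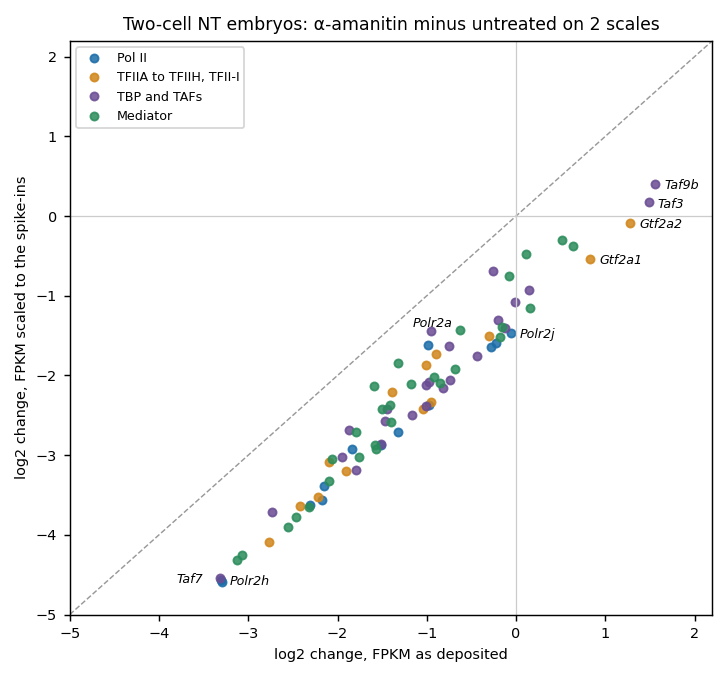
Log2 change with α-amanitin of each tested member in two-cell NT embryos with FPKM as deposited (x axis) and scaled to the spike-ins (y axis). All points lie below the dashed line of equal values, and Taf3 and Taf9b are the only ones above 0 on the scaled axis.

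In the two-cell libraries, members with higher untreated levels tended to have the more negative changes. Over the 76 members tested in set R, Spearman's rho between untreated log2 level and log2 change was −0.64, and in set N over 75 members it was −0.19. In four-cell embryos it was 0.17 over 72 members. These describe genes measured in the same libraries, and a gene near 0 can fall only little on this scale. The untreated level is also subtracted in the change, which by itself pulls rho down, and rho was not computed over all genes.

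Genes that work with these factors but do not bear their names were counted from lists, beside the 38.9% of all genes that fell in two-cell and the 11.1% that fell in four-cell embryos. In two-cell embryos, 5 of the 7 tested genes for the other TFIIH and Mediator kinase subunits fell, with Ccnh (−2.37), Cdk7 (−2.08) and Mnat1 (−1.86), which form the TFIIH kinase, in front. Of 30 pausing and elongation factor genes 18 fell, led by Supt4a (−2.87), Ccnt1 (−2.20) and Cdk9 (−2.12). Ccnt1 and Cdk9 form P-TEFb, which releases paused Pol II. Integrator had 7 of 14 falling, with Ints14 at −1.76, Ints4 at −1.55 and Ints12 at −1.29. Of the 17 genes for subunits found only in Pol I or Pol III, 16 fell (median −1.92), with Znrd1 at −3.18, Polr1d at −3.05 and Polr3k at −2.76. Among TBP relatives and regulators, Dr1 (−2.85) and Tbpl1 (−1.55) fell and Drap1 (1.04, and −0.17 on the spike-in scale) rose, and among the CTD phosphatases and assembly factors Rpap3 (−1.92) and Ssu72 (−1.27) fell and Rpap2 (1.55, and 0.31 on the spike-in scale) rose.

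In four-cell embryos fewer of them passed, with shares near or below that of all genes except for a list of 4. Ccnt1 (−2.30), Ccnt2 (−2.12) and Mepce (−1.48) fell among 28 pausing and elongation genes, Tbpl1 (−2.10) among 4 TBP relatives and regulators, Ctdp1 (−1.85), a phosphatase of the Pol II tail, among 8 genes of its list, and Polr1b (−1.68) among 17 Pol I and Pol III subunits. No gene passed among 12 of Integrator and 7 for the other TFIIH and Mediator kinase subunits. Of the maternal oocyte markers, 1 of 12 rose in four-cell and 11 of 13 rose in two-cell embryos (1 of 13 on the spike-in scale), where Dppa3 fell (−1.77) and the sum over the list went from 7430 to 12400 FPKM without to 1720 to 8090 FPKM with α-amanitin. Their part in the members' changes was not tested.

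Between the groups D and DR of the replication experiment no member passed the test. This was so for 0 of 79 members and 0% of 14570 genes (limma, adjusted p under 0.05), with 4 members and 897 genes (6.16%) at an unadjusted p under 0.05. The medians were 0.03 for the members and 0.02 for all genes. The largest positive differences, DR minus D, were those of Taf6 (1.10), Med24 (1.08), Gtf2h4 (0.91), Med17 (0.88) and Taf1a (0.80), and the largest negative ones those of Med7 (−0.67), Taf9b (−0.56), Gtf2e1 (−0.52), Med30 (−0.40) and Med21 (−0.40). Taf6, the TFIID partner of Taf9, was at 11.3, 6.11 and 8.42 FPKM in D and at 19.6, 16.8 and 21.4 FPKM in DR (SE 0.29, adjusted p 0.788). Its groups did not overlap. Polr2a (−0.20) and TBP (0.55) overlapped between the groups. With the 19 spike-ins common to its 6 libraries as the reference, the median was −1.46 for the members and −1.41 for all genes, with 0 called. The scaling factors ranged from 0.0937 to 5.6 and covered that whole range within D.

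Some members could not be followed in every table. In four-cell embryos Gtf2a1l, a germ cell form of TFIIA, was at 0 in every library, and Gtf2ird1, Gtf2ird2, Med12, Med12l, Med13l, Med26, Polr2a, Taf7l, Taf9 and Taf9b also did not pass the filter. In two-cell embryos these were Gtf2a1l, Gtf2ird1, Gtf2ird2, Med12, Med12l and Taf7l2, and in the replication experiment Gtf2a1l, Gtf2ird2, Med12 and Med12l. Taf9 ranged from 0.218 to 2.07 FPKM in the four-cell table but from 128 to 214 FPKM in the replication table. It shares 73.8% of its exon bases with Ak6 on the same strand, and Ak6 stood at 82.3 to 184 FPKM in the four-cell table. Med10, which shares 92.8% with the noncoding Gm26819 on the other strand, stood at 2.24 to 6.55 FPKM in the four-cell and 37.1 to 63.4 FPKM in the replication table. In the four-cell table all values are whole numbers of reads, while in the others 40.3% to 50.5% are, so these levels are given side by side without a test.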

How the data were processed

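The deposited values are FPKM per gene, which the authors made from RNA sequencing reads. The submitters' processing notes name Trimmomatic, Trim Galore, cutadapt, STAR, featureCounts and the mouse build mm10. Tool versions and the strand setting are not given in the sources used here, so overlapping genes on opposite strands cannot be told apart. Groups came from the labels. Two-cell columns were assigned by whether their names contain Am, and 4 columns of the replication table that match no sample were not used, nor was the oryx table.

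Genes with at least 1 FPKM in at least 3 libraries were tested on log2(FPKM + 1) with limma 3.58.1 (R 4.3.3, empirical Bayes with a mean-variance trend, tested on simulated data), with no covariate, and p-values were Benjamini-Hochberg adjusted over all genes tested, with a threshold of 0.05. Fold changes of low genes are understated on this scale. Reads were recovered from FPKM and gene length, and a value counted as whole within 0.01 read. Alternatives were a pseudocount of 0.1, no filter, median-of-ratios and spike-in scaling, voom on recovered reads, and leaving out each library. Column sets in the two-cell table, alone and as a term, their interaction, set-wise spike-in scaling and a replicate block by column number were added after the data were seen. The study describes the pools as independent biological replicates. Members were named from up to 15 called per α-amanitin contrast by size of change, the 5 largest positive and 5 largest negative changes in each contrast, the member of highest untreated four-cell level in each class or list, and Polr2a and Tbp. Of the other lists, up to 3 called genes were named. Other members, and the promoters shown, were chosen after their values were seen. The members and lists were chosen with earlier results of these data known. Protein and phosphorylation data were not analysed here.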

Additional observations from a re-analysis of the deposited data

Results flagged for a closer look

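Among 62 groups of 6 two-cell libraries, treated or untreated, of the 31 members named in that contrast, 4 had a library far from the others by Dixon's test. Chance flags about 1 in 20 groups, which is close to 4 of 62, and the other members were not scanned. Gtf2b stood at 13.4 FPKM in the untreated library NT1, with the next at 8.52 FPKM. Polr2a stood at 3.91 FPKM in the untreated library NT3, with the next at 2.17 FPKM, and Polr2e was lowest there, at 84.6 FPKM against 133 FPKM. Med25, of the Mediator tail, stood at 20.3 FPKM in the treated library Am1, with the next at 4.00 FPKM.

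The change with α-amanitin differed between the column sets R and N of the two-cell experiment for 52 of 78 members (interaction test in limma, adjusted p under 0.05). Given as the log2 change in set R minus that in set N, values follow for those of the 52 that the naming rule picked in the two-cell contrast. Others were as large, such as Med8 (−4.68), Med4 (−3.79) and Med9 (−3.36). The Pol II subunits picked were at −5.59 (Polr2d), −5.28 (Polr2h), −3.99 (Polr2e), −3.01 (Polr2b), −2.60 (Polr2f), −2.48 (Polr2k) and −1.43 (Polr2j), and Polr2m, a Pol II partner, was at −2.89. Among the general factors picked, Gtf2f2 was at −4.32, Gtf2h5 at −3.45, Gtf2h2 at −2.16, Gtf2e2 at −1.79 and Gtf2a2 at 2.83. TBP was at −2.22, and the TAFs picked at −3.68 (Taf7), −2.86 (Taf1b), −2.07 (Taf1a) and 2.81 (Taf9b). Of the Mediator subunits picked, the values were −6.58 (Med29), −4.33 (Med31), −3.76 (Med6), −2.97 (Med10), −2.94 (Med7) and −2.02 (Med13). With 3 libraries per set and arm, these rest on the spread of few samples.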

How the results depend on the processing

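Of the 7 members called in four-cell embryos, the count was 3 with a pseudocount of 0.1, 2 with no filter, 4 with median-of-ratios scaling, 2 with libraries S15 to S18 alone, 8 (all lower, with Polr2b and Taf5l and without Polr2f) with voom on recovered reads, and 1 to 13 when a library was left out. Over all genes tested, these were 732 with the pseudocount, 284 with no filter, 1202 with voom, 210 with S15 to S18 and 63 to 1493 with a library left out. In two-cell embryos set N alone gave 10 members and 2411 genes called, with spike-in scaling 29 members and 4316 genes. Spike-in scaling of set R alone gave 74 members and 12371 genes, and of both sets 12559 genes. Leaving out 1 library gave 37 to 55 members and 6099 to 9127 genes. In the replication experiment the count stayed at 0 under every alternative run. Among the members named in each contrast, these directions changed with a call before or after: Gtf2a1 to −0.54 with spike-in scaling (−0.12 in set N, −0.95 in set R), Med25 to −0.98 and Taf3 to −0.30 with it in set R, Taf9b to −0.50 with it in set N, Med29 to 0.16 in set N, and Polr2j to 0.77 with median-of-ratios scaling. The cause was not tested. In set N 22 of 75 members were positive, against 9 of 78 pooled, among them Med4 (0.14) and Polr2f (0.32). With the column set as a term, 58 members and 9537 genes were called in the two-cell table. A replicate block by column set and number in the two-cell table gave 44 members and 7371 genes called. Libraries with the same number correlated by 0.01 to 0.07 in their deviations, and not each best with its own number. Those with different numbers correlated by −0.1 to 0.03. Deviations from means of 3 libraries depend on each other, so this cannot tell whether libraries with the same number shared an experiment. Gtf2a1 did not pass with this block. The four-cell libraries were not paired, since their columns share no numbers between groups, and D and DR share only 1. Untreated and treated four-cell columns do have neighbouring numbers (S7 and S8, S15 and S16, S17 and S18). Whether these are pairs is not given and was not tested. In four-cell embryos, members under about 1 FPKM rested on few reads, such as 9 to 18 for untreated Polr2a, so changes there were not detectable at this depth.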
